A study of Caenorhabditis elegans with 14 samples.

Results

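Polysomal RNA was compared with total RNA of wild-type Caenorhabditis elegans (Bristol N2), gene by gene, as log2(polysomal FPKM / total FPKM). FPKM counts fragments per length of transcript and per amount sequenced. The members were the 15266 entries of a gene name and locus that had been tested between these fractions, of 41875 entries in the whole table. The worms were synchronized gravid hermaphrodite cultures on day 1 of adulthood, kept at 20 °C on NGM plates with OP50 bacteria. Whole worms were pooled and lysed with cycloheximide, and the polysomal RNA came from the sucrose gradient fractions in which an mRNA carried 3 or more ribosomes. The wild-type groups held 3 total and 3 polysomal libraries, and a strain labelled pycr-1(wrm22), handled alike, gave 4 and 4. The strain's gene encodes an enzyme of proline synthesis. How the libraries were prepared (selection of poly(A) RNA or removal of rRNA) was not given in the sources used here.

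A ribosome binds near the 5′ end of an mRNA, moves along the coding sequence and is followed by others, so an mRNA in active use carries a string of ribosomes, the polysome, and sinks far into a gradient. Messages that are stored, silenced or too short to hold several ribosomes stay nearer the top, as does RNA that is not translated. In the C. elegans germ line, oocytes and early embryos, many maternal messages are made early and held silent by RNA-binding proteins until a later stage or a particular cell.

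The table held 1 pooled FPKM per gene and group, so no spread between replicates and no depth could be computed. A gene passed where the q-value in the authors' deposited table was under 0.05. The sign ± gives an SE of the log2 ratio worked back from the authors' test statistic, taking the statistic as built on the spread of single libraries. The smallest q-value in the authors' deposited table was 0.000207, and a gene called higher or lower below has that q unless another is given. The labels do not say whether libraries of 1 group came from separate cultures, so the q-values measure the spread between these libraries, which may be technical. FPKM is relative to the RNA of its own fraction, so a log2 ratio of 0 marks an average gene and not a fixed number of ribosomes. In RNA of whole worms, fewer cells of a type in a sample and less RNA per cell cannot be told apart. The markers of a gravid adult were present in total RNA, with 3376 FPKM for vit-6 (yolk), 933 for cbd-1 and 445 for rme-2 (oocyte), 707 for unc-54 (muscle), 188 for cpr-1 (intestine) and 6.28 for unc-119 (neurons).

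In wild type, 3765 entries were higher in polysomal RNA, 24.7% of those tested, and 4113 were lower, 26.9%. The median log2 ratio was 0.05 over all entries with a value in both fractions and 0.04 over the 8067 at 5 FPKM or more in both. The distribution reached much farther down than up. Among 13977 coding genes the lowest 1% lay at -3.55 or below and the highest 1% at 1.55 or above. At 5 FPKM or more in total RNA, 125 coding genes had a log2 ratio of -3 or lower, whereas at 5 FPKM or more in polysomal RNA none reached 3 and 29 reached 1.5. Of the 125, 23 were histone genes and 6 belonged to a list of maternal mRNAs known for translational control. Every tested entry had at least 0.314 FPKM in 1 of the fractions, so a rare transcript was tested only where 1 fraction was high enough. Of the 15266 entries, 178 were listed at 0 in polysomal RNA and 16 in total RNA, and these were left out of medians unless stated.

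**Figure D1:**
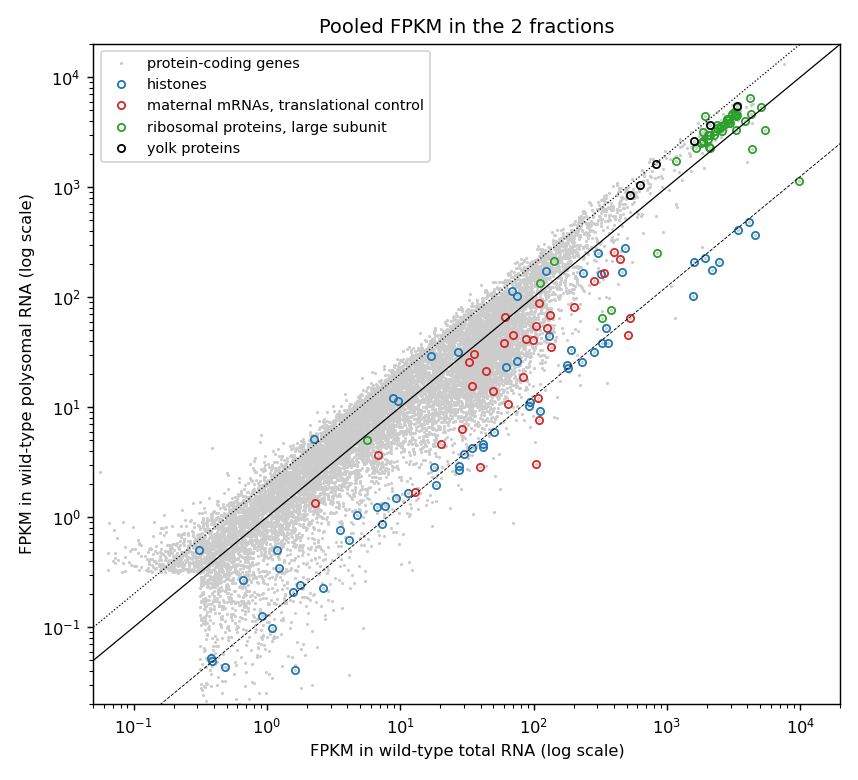
Pooled FPKM of each protein-coding gene in wild-type total RNA (x, log scale) and polysomal RNA (y, log scale), with the solid line at equal values, the dotted line at 2-fold higher and the dashed line at 8-fold lower in polysomal RNA. Most histone genes lie along the dashed line, maternal messages scatter below the solid line, and yolk genes and most ribosomal protein genes lie above it.

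Classes of transcripts that encode no protein, other than rRNA, had medians far below that of coding genes, with many entries too rare to pass the test. Of 55 long intergenic noncoding RNAs, 35 were lower and 0 higher, with a median log2 ratio of -3.20 over those with a value in both fractions (-3.33 when the 8 listed at 0 in polysomal RNA were ranked lowest). Of 136 small nucleolar RNAs, which guide rRNA modification, 32 were lower, or 23.5% against 26.9% of all entries, and 0 higher (median -3.81, or -4.69 with the 45 listed at 0 ranked lowest). Of 38 small nuclear RNAs, the RNA parts of the spliceosome, 16 were lower and 0 higher (median -3.09, or -4.08 with 8 at 0 ranked lowest). Among other noncoding RNAs, 66 of 178 were lower and 1 was higher (median -2.40, or -3.76 with 54 at 0 ranked lowest). With 1 FPKM added to both values, the medians were -0.99 for the long intergenic RNAs and -1.29 for the other noncoding RNAs. The RNase P RNA rpr-1, which processes tRNA ends, fell from 7139 to 60.93 FPKM, a log2 ratio of -6.87 ± 0.50. The snoRNA ZK185.9 fell from 32334 to 281.2 FPKM (-6.85 ± 0.24). The deposited intervals of rpr-1 and ZK185.9 were over 2 times as long as the annotated genes, so part of their values may belong to neighbours. The same held for 91 of the 136 small nucleolar, 21 of the 38 small nuclear, 71 of the 178 other noncoding and 10 of the 55 long intergenic RNAs. Without such entries the medians were -3.05, -2.53, -2.58 and -3.16 in the same order, over entries with a value in both fractions. The 3 tRNA entries, at 399.8 to 525.8 FPKM in total RNA, were listed at 0 in polysomal RNA and did not pass. F32A5.9 was the noncoding RNA that was higher (15.64 to 23.15 FPKM, 0.57 ± 0.23), with q = 0.027 in the authors' deposited table.

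Pseudogenes, which resemble genes but are annotated as without a working protein, were low too. Of 479, 333 were lower and 5 higher, with a median of -2.63. Most were rare, with a median of 1.37 FPKM in total RNA. The median log2 ratio was -0.81 with 1 FPKM added to both values and -1.27 over the 16 at 5 FPKM or more in both fractions. Among them were the Piwi relative prg-2 (128.5 to 7.89 FPKM, -4.03 ± 0.18), the Argonaute relative wago-2 (54.46 to 4.95, -3.46 ± 0.18) and bath-14 (2.60 to 0.0889, -4.87 ± 0.66, or -1.73 with 1 FPKM added; q = 0.0081 in the authors' deposited table). msp-52, a major sperm protein copy annotated as a pseudogene, was higher instead (8.4 to 21.6 FPKM, 1.36 ± 0.28), and its reads cannot be told apart from those of near-identical msp genes. The classes overlapped: 211 coding genes lay at or below the median of the long intergenic RNAs.

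Ribosomal RNA was mixed. The cytosolic 18S and 26S entries did not pass, with rrn-1.1 at 13.13 and 14.7 FPKM (0.16 ± 0.18) and rrn-3.1 at 4205 and 5179 (0.30 ± 0.60), where q was 0.46 and 0.52 in the authors' deposited table. The 5S entry rrn-4.2 (chromosome V, 17115903 to 17116021, WBcel235) was higher, from 223.7 to 478.7 FPKM (1.10 ± 0.32; q = 0.0031 in the authors' deposited table). MTCE.33, a mitochondrial rRNA, fell from 21616 to 3512 FPKM (-2.62 ± 0.22).

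**Figure D2:**
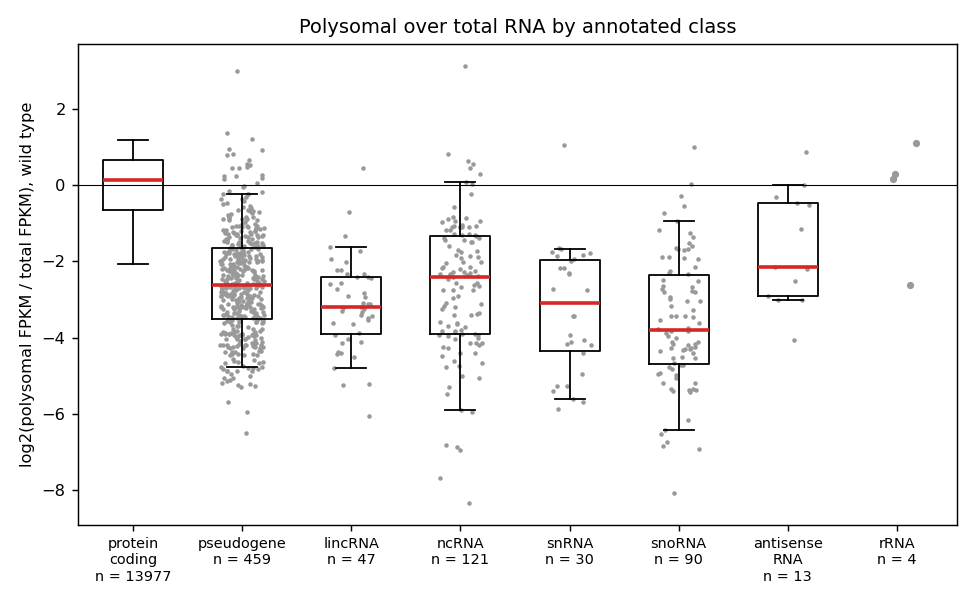
Log2(polysomal FPKM / total FPKM) in wild type by annotated class, with boxes at the quartiles, red lines at the medians, whiskers at the 5th and 95th percentiles and grey points for single entries (not drawn for coding genes). The medians of pseudogenes and of noncoding classes other than rRNA lie between -2.14 and -3.81, against 0.12 for coding genes. The 4 rRNA entries are shown as points alone.

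The maternal messages known for translational control stood below other coding genes. Of 33 tested, 29 were lower and 0 higher, and their median log2 ratio was -1.15. The lowest was nos-2, a Nanos relative needed for primordial germ cells, whose mRNA is kept silent in oocytes and early embryos (chromosome II, 7065020 to 7069966, plus strand). It fell from 104.7 FPKM in total to 3.04 in polysomal RNA, a log2 ratio of -5.11 ± 0.56 or 34.5-fold, over a deposited interval more than 2 times as long as the annotated gene. Its relative nos-1 (51.13 to 2.34 FPKM, -4.45 ± 0.26) had a deposited interval close to its gene.

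Determinants of early embryonic cell fate on the list ranged widely, and most of those given here were picked after their values were seen. mom-2, the Wnt signal that polarizes an early blastomere, fell from 110.2 to 7.61 FPKM (-3.86 ± 0.19). pal-1, the Caudal relative that specifies posterior blastomeres, fell from 107.3 to 12.02 FPKM (-3.16 ± 0.23), and glp-1, a Notch receptor, from 83.5 to 18.8 (-2.15 ± 0.16). apx-1, a Notch ligand of the early embryo, fell from 20.1 to 4.7 FPKM (-2.11 ± 0.23). zif-1, which directs the destruction of germline proteins in somatic cells of the embryo, fell from 64.1 to 10.6 FPKM (-2.60 ± 0.30). These 5 stood more than 4-fold lower in polysomal RNA, whereas skn-1, a transcription factor that specifies early blastomeres, stood at -0.63 ± 0.16 (q = 0.00039 in the authors' deposited table).

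Regulators that act on other messages were on the same list. pos-1 and spn-4, RNA-binding proteins made in the embryo, fell from 509.9 to 45.74 FPKM (-3.48 ± 0.18) and from 531.3 to 64.5 (-3.04 ± 0.16). The germline sex determination genes fog-1 (12.86 to 1.71 FPKM, -2.91 ± 0.51) and tra-2 (29.0 to 6.3, -2.20 ± 0.20) were lower, and fem-3, a gene of the same pathway that is on no list and was chosen after its value was seen, fell from 43.5 to 2.89 FPKM (-3.91 ± 0.24).
Other members, also picked after their values were seen, fell by less. oma-1 and oma-2, redundant regulators of oocyte maturation, went from 104.8 to 54.8 FPKM (-0.93 ± 0.16) and from 132.2 to 68.9 (-0.94 ± 0.16). The yolk receptor rme-2 went from 445.2 to 221.6 FPKM (-1.01 ± 0.15). gld-1, itself a repressor of many of these messages, stood at -0.62 ± 0.15. The 4 members that did not pass were cki-2 (-0.34 ± 0.18), lin-41 (-0.32 ± 0.15), fbf-2 (-0.21 ± 0.16) and the poly(A) polymerase gld-2 (0.11 ± 0.15), with q from 0.065 to 0.57 in the authors' deposited table.

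Within other germline groups the messages divided. Of 45 germline and maternal RNA-binding protein genes, 28 were lower and 6 higher. cpb-1, which acts in spermatogenesis, was low (22.57 to 3.23 FPKM, -2.81 ± 0.20), while the Sm-like protein gene car-1 and the helicase gene cgh-1, partners in the granules that store maternal mRNA, were high. car-1 rose from 420 to 1090 FPKM (1.38 ± 0.14) and cgh-1 from 519.5 to 909 (0.81 ± 0.15). For the P granules, the RNA-rich bodies of germ cells, 7 of 15 genes were lower and 3 higher. The embryonic components meg-1 (65.17 to 19.49 FPKM, -1.74 ± 0.17) and meg-3 (30.85 to 10.9, -1.50 ± 0.18) were lower, whereas 3 Vasa-type helicase genes were higher, namely glh-1 (187.4 to 328.2 FPKM, 0.81 ± 0.14), glh-2 (0.59 ± 0.15) and glh-4 (0.47 ± 0.15; q = 0.0062 in the authors' deposited table).

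Eggshell genes split into opposite groups, with 15 of 24 lower and 8 higher. The pseudophosphatases egg-4 and egg-5, which link fertilization to egg activation, fell from 73 to 19.31 FPKM (-1.92 ± 0.17) and from 82.81 to 22.15 (-1.90 ± 0.17). These are close copies of each other. The chitin-binding protein gene cbd-1 fell from 933.3 to 392.2 FPKM (-1.25 ± 0.17), and the chondroitin proteoglycan genes cpg-2 (1196.9 to 657.8, -0.86 ± 0.16) and cpg-1 (1161.8 to 698.4, -0.73 ± 0.16) were lower too. In contrast, the eggshell genes perm-2 and perm-4 rose from 428.7 to 908.9 FPKM (1.08 ± 0.15) and from 233.1 to 518.9 (1.15 ± 0.14). cpg-3 rose from 326.7 to 621 FPKM (0.93 ± 0.15).

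Genes of chromosomes, cell division and small RNA pathways were lower as groups. Of 39 meiotic genes 31 were lower and 2 higher (median -0.86), and of 68 replication and cell division genes 56 were lower and 1 higher (median -0.91). Of 42 Argonaute and small RNA pathway genes 28 were lower and 3 higher (median -0.81). The annotated pseudogenes prg-2, wago-2 and drh-2 were among the lowest of these 42. The origin recognition gene orc-1 fell from 93.86 to 11.02 FPKM (-3.09 ± 0.18), and sas-5, needed to build centrioles, from 79.07 to 14.96 (-2.40 ± 0.18). The synaptonemal complex gene syp-1 (37.96 to 51.22 FPKM, 0.43 ± 0.16; q = 0.016 in the authors' deposited table) and the Argonaute csr-1 (185.6 to 266.1, 0.52 ± 0.15; q = 0.0012 in the authors' deposited table) were among the few that were higher. him-4, counted with the meiotic genes for its name, encodes the extracellular matrix protein hemicentin.

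Histone genes had the lowest list median, -2.88, with 48 of 67 lower and 4 higher. It was -2.89 over the 35 at 5 FPKM or more in both fractions, and -1.67 over all with 1 FPKM added to both values. The 52 his genes other than the variants and linkers named below held 42 of the 48 and had a median of -3.03. his-64 fell from 4612 to 369.1 FPKM (-3.64 ± 0.16) and his-67 from 1575 to 102.5 (-3.94 ± 0.17). Near-identical copies make each single his value uncertain. Histone variants differed among themselves. The CENP-A gene hcp-3 (-1.54 ± 0.18) and the H2A.Z gene htz-1 (460.1 to 169.6 FPKM, -1.44 ± 0.16) were lower. Of 5 H3.3-group genes 1 was lower, and his-72 (306.6 and 249.4 FPKM, -0.30 ± 0.15) and his-71 (27.1 and 32, 0.24 ± 0.19) did not pass. Of 8 linker histone genes 3 were lower and 3 higher, and his-24 went from 17.03 to 28.97 FPKM (0.77 ± 0.20; q = 0.0009 in the authors' deposited table) and hil-1 from 2.27 to 5.16 (1.18 ± 0.27).

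Messages of the mitochondrial genome, which are translated by mitochondrial ribosomes, were lower in all 6 entries tested. The median was -2.47. The cytochrome oxidase subunit ctc-1 fell least, from 3216 to 922.9 FPKM (-1.80 ± 0.17), and the NADH dehydrogenase subunit nduo-2 most, from 47.32 to 4.22 (-3.49 ± 0.27). ctc-2 stood at -2.35 ± 0.16, ctc-3 at -2.67 ± 0.16, ctb-1 at -2.16 ± 0.16 and nduo-4 at -2.59 ± 0.16. The nuclear genes of the same respiratory complexes lay on the other side, with 53 of 65 higher and 2 lower (median 0.60). lpd-5 of complex I rose from 140.4 to 325.6 FPKM (1.21 ± 0.15) and cox-4 of cytochrome oxidase from 248.8 to 550.3 (1.15 ± 0.15).

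**Figure D3:**
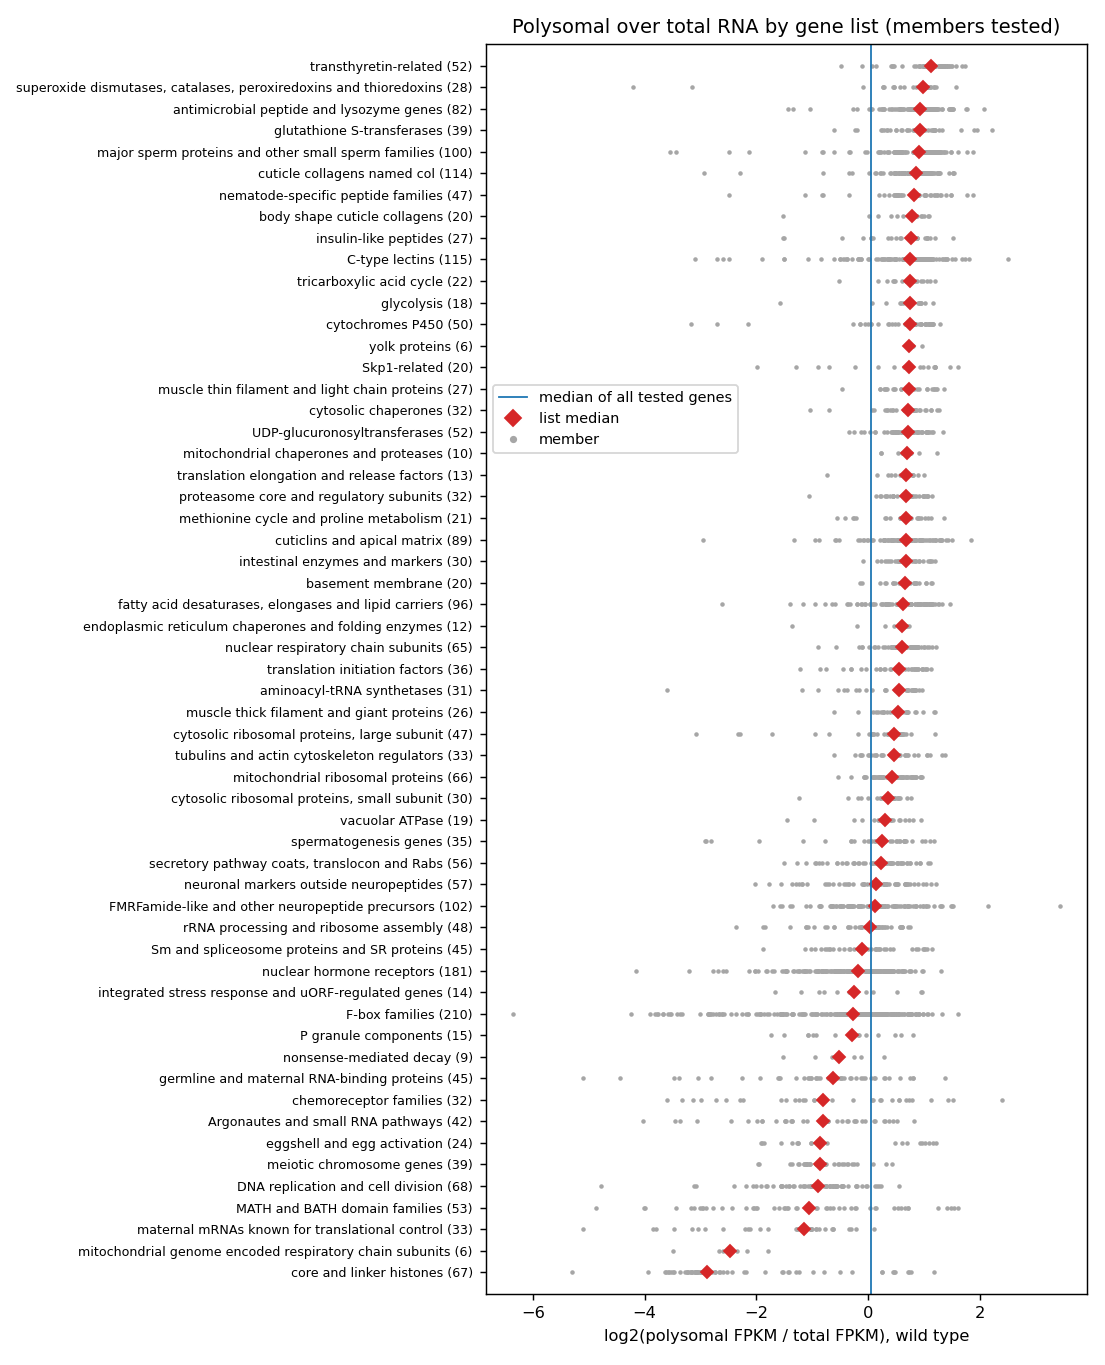
Log2(polysomal FPKM / total FPKM) in wild type for the members (grey) and the median (red) of each gene list, ordered by median, with the number of tested members in brackets and the blue line at the median of all tested genes (0.05). Histones and mitochondrially encoded genes lie lowest, germline and cell division lists below the line, and transthyretin-related genes highest at 1.13.

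The machinery of translation was higher in polysomal RNA for the most part. Of 47 large-subunit ribosomal protein genes 32 were higher and 6 lower (median 0.47), and of 30 small-subunit genes 15 were higher and 2 lower (median 0.35). Of 36 initiation factor genes 23 were higher and 4 lower (median 0.56), and of 13 elongation and release factor genes 11 were higher and 1 lower (median 0.68). eef-1A.1, the factor that brings aminoacyl-tRNA to the ribosome, rose from 7508 to 13144 FPKM (0.81 ± 0.19; q = 0.0009 in the authors' deposited table). The eIF4A helicase gene inf-1 rose from 352.9 to 730 FPKM (1.05 ± 0.14). Among the cap-binding eIF4E genes, ife-2 (30.95 to 66.97 FPKM, 1.11 ± 0.17) and ife-4 (5.26 to 10.79, 1.04 ± 0.23) were higher and ife-5 (12.25 to 5.29, -1.21 ± 0.24) was lower. The mitochondrial ribosomal proteins, which are nuclear products, were higher in 35 of 66 genes and lower in 1 (median 0.43).

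The lowest ribosomal protein messages included the shortest ones. rpl-41.2 and rpl-41.1 have an annotated coding length of 66 nt each and are close copies, so their reads may be shared. rpl-41.2 fell from 9694 FPKM, the highest FPKM of a coding gene in wild-type total RNA, to 1143 (-3.08 ± 0.17), and rpl-41.1 from 378 to 77.2 (-2.29 ± 0.18). rpl-39, with 153 nt, fell from 4312 to 2229 FPKM (-0.95 ± 0.15), and rpl-29, with 186 nt, from 5412 to 3313 (-0.71 ± 0.15). The deposited intervals of rpl-41.2 and rpl-39, like that of ostf-4 below, were over 2 times as long as the annotated genes. Of the 6 ribosomal protein genes with under 200 nt, 4 were lower and 1 higher (median -0.83), and of the 17 with 600 nt or more 14 were higher and 0 lower (median 0.51). Across the 77 genes, which share libraries, Spearman's rho between coding length and log2 ratio was 0.46.

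Some longer ribosomal protein genes were low as well. rps-12, with 420 nt, fell from 4017 to 1697 FPKM (-1.24 ± 0.15). In some pairs of paralogous genes, picked after their values were seen, 1 copy was low and the other high. rpl-11.2 (chromosome X, 2241738 to 2242618) fell from 838.1 to 252.6 FPKM (-1.73 ± 0.16) and rpl-11.1 (chromosome V, 3585313 to 3586064) rose from 1945 to 4456 (1.20 ± 0.15). rpl-25.1 fell from 323.5 to 64.13 FPKM (-2.33 ± 0.17) and rpl-25.2 rose from 2086 to 2964 (0.51 ± 0.14; q = 0.0012 in the authors' deposited table). The pair of eIF5A genes behaved likewise, with iff-2 at -0.75 ± 0.15 (305.8 to 182.4 FPKM) and iff-1, the copy known from the germ line, at 0.99 ± 0.15 (1028 to 2046).

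Over 7720 coding genes at 5 FPKM or more, the log2 ratio was lowest for the shortest coding sequences, highest at 300 to 450 nt and lower again for long ones. The 8 genes under 150 nt had a median of -2.08, and 6 were lower and 0 higher. They included ZK686.1 with 132 nt (141 to 8.08 FPKM, -4.13 ± 0.24), ostf-4 with 105 nt (223 to 61.2, -1.87 ± 0.22) and F59C12.4 with 147 nt (87.4 to 15.1, -2.53 ± 0.26), the last a gene chosen after its value was seen. The 630 genes at 300 to 450 nt had a median of 0.50, the 1231 at 1800 to 3000 nt a median of -0.32, and those at 6000 nt or more a median of -0.03. Spearman's rho with coding length was -0.26 across all of these genes, and -0.23, -0.25 and -0.22 within equal-sized classes of low, middle and high abundance. Genes with an annotated 3′ UTR under 50 nt had a median of 0.49 (577 genes), against -0.27 for those with 400 nt or more (1048 genes). For the annotated 5′ UTR, rho was -0.01 over 6598 genes. Lengths are those of the annotation, not of the transcripts in these libraries.

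**Figure D4:**
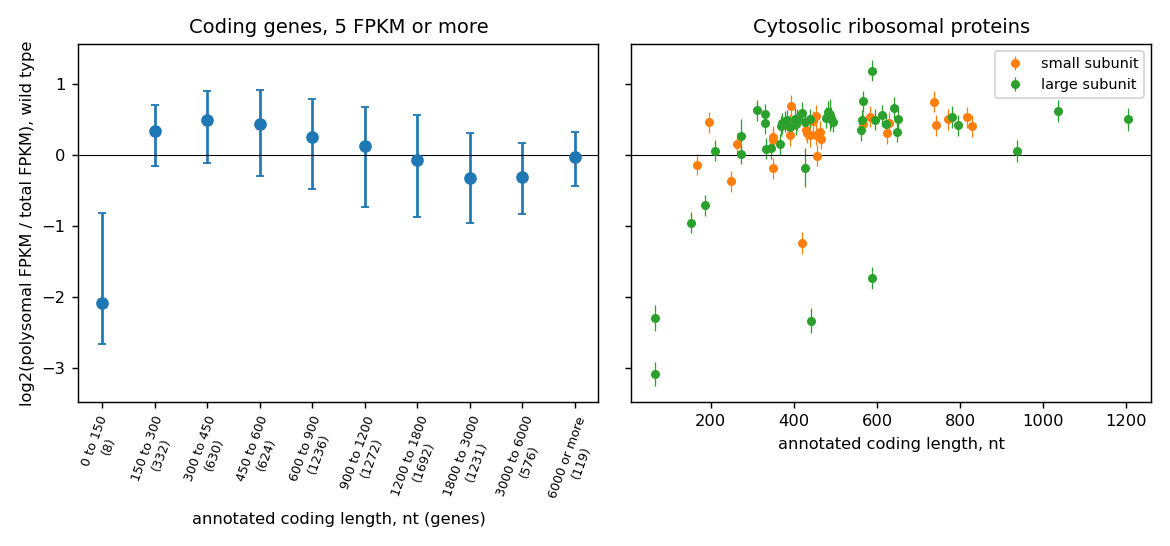
Left, the median log2(polysomal FPKM / total FPKM) of coding genes at 5 FPKM or more in both fractions by annotated coding length, with bars at the quartiles and the number of genes in brackets. Right, the ratio of each cytosolic ribosomal protein gene against its coding length, with bars of 1 SE, where the 66 nt genes lie at -3.08 and -2.29 and 3 longer genes lie at -1.24, -1.73 and -2.33.

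Messages of somatic tissues were mostly higher. All 6 yolk protein genes were higher, with log2 ratios from 0.68 to 0.96. vit-2 rose from 2116 to 3663 FPKM (0.79 ± 0.19; q = 0.0011 in the authors' deposited table), and vit-6 from 3376 to 5420 (0.68 ± 0.27; q = 0.02 in the authors' deposited table). Of 30 intestinal genes 23 were higher and 0 lower (median 0.67), and the gut esterase ges-1 rose from 13.78 to 30.44 FPKM (1.14 ± 0.17). Of 27 thin-filament genes 21 were higher and 1 lower (median 0.72), and tropomyosin lev-11 rose from 331.2 to 778.3 FPKM (1.23 ± 0.15). Among 26 genes of the thick filament, attachments and giant muscle proteins, 14 were higher and 1 lower (median 0.54). unc-54, the main body wall myosin heavy chain, rose from 707.4 to 1149 FPKM (0.70 ± 0.16; q = 0.00039 in the authors' deposited table), and the integrin subunit pat-3, which other tissues use too, fell from 80.41 to 52.77 (-0.61 ± 0.15).

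Cuticle collagens followed the other somatic genes, with 85 of 114 col genes higher and 2 lower (median 0.85). The body shape collagen dpy-5 rose from 57.53 to 110 FPKM (0.94 ± 0.18), while dpy-10 was the member of its list of 20 that was lower (4.51 to 1.57, -1.53 ± 0.25). Neuronal messages were called less often in either direction. Of 57 neuronal markers 9 were higher (15.8%) and 10 lower (17.5%), against 24.7% and 26.9% of all entries (median 0.14). Their median in total RNA was 1.47 FPKM. The synaptic vesicle gene snt-1 rose from 3.0 to 5.56 FPKM (0.89 ± 0.22), the microtubule-associated unc-33 fell from 31.11 to 13.26 (-1.23 ± 0.21), and unc-119 did not pass (6.28 and 6.44 FPKM, 0.04). Of 102 neuropeptide genes 20 were higher (19.6%) and 8 lower (7.84%), again under the shares of all entries. nlp-29, an antimicrobial peptide of the epidermis despite its family name, rose from 12.41 to 34.59 FPKM (1.48 ± 0.24).

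Of 100 major sperm protein and small sperm family genes 64 were higher and 5 lower (median 0.90), with near-identical copies and pseudogenes among them. Of 30 coding msp genes 28 were higher and 0 lower. msp-152, a cytoskeletal and signalling protein of sperm, rose from 219.5 to 534.9 FPKM (1.28 ± 0.15), and this gene was chosen after its value was seen. Of 35 other spermatogenesis genes 8 were higher (22.9%) and 6 lower (17.1%), neither above the shares over all entries. The transcription factor spe-44, which drives sperm genes early, fell from 17.23 to 2.31 FPKM (-2.90 ± 0.22), and spe-11, a sperm protein that enters the egg, rose from 17.24 to 37.22 (1.11 ± 0.18).

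Core metabolism and protein quality control were higher with few exceptions. Of 22 tricarboxylic acid cycle genes 19 were higher and 1 lower (median 0.75), of 18 glycolysis genes 15 and 1 (median 0.75), and of 32 proteasome genes 26 and 1 (median 0.67). The malate dehydrogenases mdh-1 (281.7 to 583.7 FPKM, 1.05 ± 0.14) and mdh-2 (177.4 to 380.5, 1.10 ± 0.14) rose, hexokinase hxk-1 fell from 123.5 to 41.29 (-1.58 ± 0.16), and rpn-6.2, a paralogue of the proteasome subunit rpn-6.1, fell from 20.4 to 9.76 (-1.06 ± 0.19). rpn-6.1 itself rose from 124.2 to 162.7 FPKM (0.39 ± 0.15; q = 0.02 in the authors' deposited table). Of 12 endoplasmic reticulum folding genes 9 were higher. The BiP genes hsp-3 (0.66 ± 0.14) and hsp-4 (0.63 ± 0.15) were among these, the co-chaperone dnj-20 was lower (85.91 to 33.47 FPKM, -1.36 ± 0.16), and ero-1 (-0.21 ± 0.17) and enpl-1 (0.30 ± 0.15) did not pass. The mitochondrial chaperonin hsp-60 rose from 382.8 to 719 FPKM (0.91 ± 0.14).

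Among lipid genes, 59 of 96 were higher and 6 lower, and the fatty acid desaturases fat-2 (544.1 to 207.2 FPKM, -1.39 ± 0.18) and fat-1 (330.6 to 147.6, -1.16 ± 0.15) were in the lower group. The lipid-binding protein gene lbp-2 rose from 149.1 to 410.6 FPKM (1.46 ± 0.16). pycr-1, the gene mutated in the other strain, rose in wild type from 4.91 to 12.59 FPKM (1.36 ± 0.21).

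Some messages of the unfolded protein and integrated stress responses are known in mammals for control by upstream reading frames. Of 14 genes of these responses 5 were lower (35.7%) and 3 higher (21.4%), near the 26.9% and 24.7% of all entries. The transcription factor atf-4, whose mammalian relative is translated mainly under stress, fell from 34.52 to 10.81 FPKM (-1.68 ± 0.19), and the stress sensor ire-1 from 48.42 to 21.11 (-1.20 ± 0.17). xbp-1, spliced by IRE-1 in stress, did not pass (107.6 and 92.9 FPKM, -0.21 ± 0.15; q = 0.25 in the authors' deposited table). Of 9 nonsense-mediated decay genes 6 were lower and 0 higher. smg-6, the endonuclease of that pathway, fell from 32.64 to 11.35 FPKM (-1.52 ± 0.18), and the helicase smg-2 did not pass (70.06 and 85.63 FPKM, 0.29 ± 0.15; q = 0.09 in the authors' deposited table).

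Transthyretin-related genes had the highest list median, 1.13, with 38 of 52 higher and 1 lower. ttr-5 rose from 14.15 to 46.9 FPKM (1.73 ± 0.21) and ttr-6 from 33.5 to 106.9 (1.67 ± 0.18). Of 82 antimicrobial and lysozyme genes 51 were higher and 0 lower (median 0.93), and the infection response genes irg-1 (3.86 to 13.13 FPKM, 1.77 ± 0.26) and irg-3 (6.16 to 20.68, 1.75 ± 0.27) were among the 12 highest coding genes. Of 39 glutathione S-transferase genes, which conjugate toxins, 22 were higher and 0 lower (median 0.92), and gst-4 rose from 14.24 to 35.43 FPKM (1.32 ± 0.19). Of 115 C-type lectin genes 55 were higher and 6 lower, and clec-87 fell from 1066 to 125.1 FPKM (-3.09 ± 0.17). The highest coding gene at 1 FPKM or more in both fractions was C45G9.12, from 2.37 to 9.13 FPKM (1.94 ± 0.44; q = 0.0012 in the authors' deposited table).

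At the other end, the lowest coding genes at 1 FPKM or more in both fractions included many without a gene-class name. K04C1.5 (chromosome X, 14248053 to 14249846) fell from 50.48 to 1.12 FPKM (-5.50 ± 0.28), F47B8.10 from 55.97 to 1.79 (-4.97 ± 0.27), F22F4.4 from 34.94 to 1.06 (-5.04 ± 0.29) and F23A7.8 from 1156 to 64.31 (-4.17 ± 0.21). trcs-1 fell from 358 to 16.58 FPKM (-4.43 ± 0.19). The F-box genes are a family of substrate receptors for ubiquitin ligases. Of 210, pseudogenes included, 62 were lower (29.5%, near the 26.9% of all entries) and 8 higher (3.81%, against 24.7% of all entries). Among coding members, 25 of 92 fbxa, 6 of 58 fbxb and 6 of 30 fbxc genes were lower. In the same order, 7, 1 and 0 were higher. fbxa-215 fell from 149.2 to 7.89 FPKM (-4.24 ± 0.19). The MATH and BATH genes were lower in 29 of 53 and higher in 6 (median -1.06), pseudogenes included. The 2 families differed among coding genes. Of 30 bath genes 20 were lower and 1 higher (median -1.36), and of 14 math genes 2 were lower and 5 higher (median 0.62). The nuclear hormone receptors, pseudogenes included, were lower in 49 of 181 (27.1%, about the share of all entries). They were higher in 11 (6.08%, against 24.7% of all entries), and their median was -0.19.

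The ratio did not follow abundance in 1 direction. By mean FPKM over the 4 groups, coding genes at 16 to 32 FPKM had the lowest median, -0.40, with 1044 of 2182 lower, and those at 256 to 512 FPKM the highest, 0.79, with 158 of 197 higher. Members of 7 germline and cell division lists lay in the 16 to 64 FPKM range in 54.1% of cases, against 28.9% of all coding genes. Other coding genes in that range had a median of -0.24 and these members one of -0.87. Since the ratio is built from FPKM, bins by a value that enters it are not independent of it.

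By chromosome, coding genes of X had a median of 0.36, with 35.1% higher and 12% lower, against medians from -0.10 on chromosome III to 0.23 on chromosome V. At 5 FPKM or more the median on X was 0.54 and those on the autosomes lay between -0.15 and 0.16. The germline and cell division lists had 9 of 244 members on X (3.69%, against 14.2% of all coding genes). Without these members the medians were 0.36 on X and 0.09 on the autosomes together. The part of other tissue-specific genes in this difference was not tested.

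The same ratio was measured in other libraries, those of the strain labelled pycr-1(wrm22), where 3682 entries were higher (23.9% of those tested) and 4159 lower (27%). Of the 3750 entries higher in wild type and tested there, 3095 (82.5%) were higher again and 1 was lower, and of 4027 lower in wild type 3516 (87.3%) were lower again and 1 was higher. Over 7720 coding genes at 5 FPKM or more in wild type, Spearman's rho between the strains was 0.97. These 2 comparisons share no library.

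Of the 57 list medians, those of splicing genes (-0.10 in wild type and 0.04 in the mutant-labelled strain) and neuropeptides (0.13 and -0.05) changed sign in the second strain. Histones had medians of -2.88 in wild type and -2.79 in the mutant-labelled strain, maternal messages -1.15 and -1.64, and yolk genes 0.74 and 0.65. The small-subunit ribosomal protein genes had medians of 0.35 and 0.06, with 15 higher and 2 lower in wild type against 1 higher and 5 lower in the mutant-labelled strain. For the large subunit the medians were 0.47 and 0.14, with 32 higher and 6 lower in wild type against 6 higher and 8 lower in the mutant-labelled strain. No single ribosomal protein gene passed the test of the difference between the strains. On simulated data it recovered 45 of 100 differences of log2 1. Those were placed on genes drawn from all that were tested, so they do not show its power for ribosomal protein genes. In that test, run from the authors' statistics over 14665 genes with Benjamini-Hochberg adjustment, 23 genes passed, 11 with a higher and 12 with a lower ratio in the mutant-labelled strain, and 569 had an unadjusted p under 0.05. With the authors' statistics as they stand, 4 passed. Some of the 23 rested on very small SE, such as 2 picked after their values were seen. The SE of the difference was 0.0073 for Y53F4B.47 and 0.019 for Y55F3BR.9. The median SE of a log2 ratio was 0.23.

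**Figure D5:**
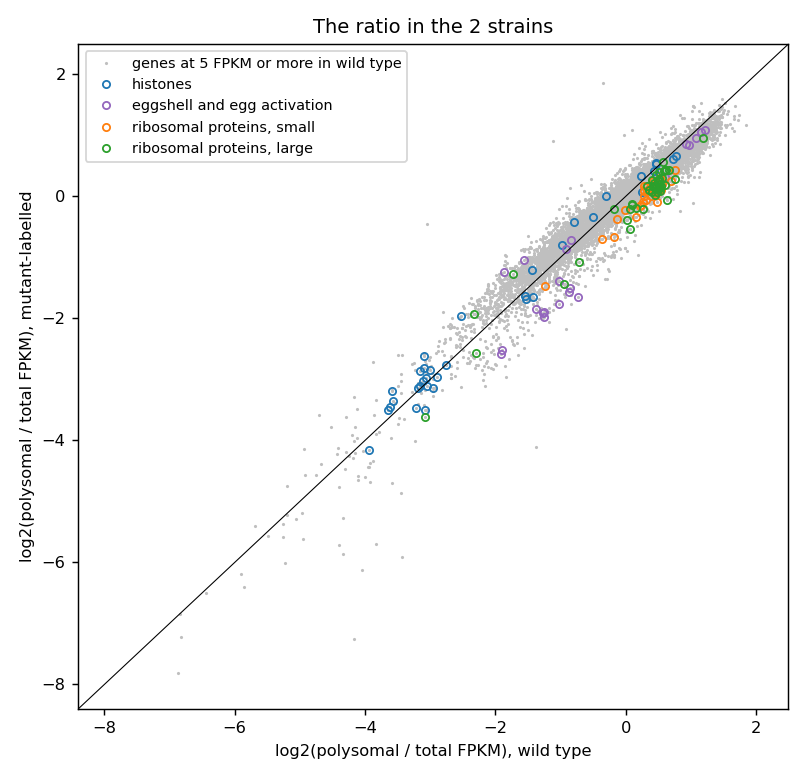
Log2(polysomal FPKM / total FPKM) in wild type (x) and in the mutant-labelled strain (y) for entries at 5 FPKM or more in both wild-type fractions, with the line at equal values. The points follow the line over the whole range (rho 0.97 over coding genes). Most ribosomal protein genes lie below it, and so does the eggshell gene cpg-1, at -0.73 in wild type and -1.65 in the mutant-labelled strain.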

How the data were processed

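The build was WBcel235, and the submitters' processing notes name Cuffdiff 2.2.1, StringTie 1.3.4d, HISAT2 2.1.0 and FastQC 0.11.7. Neither settings, strandedness nor the treatment of multiply mapping reads was given in the sources used here. Values of near-identical, overlapping and antisense genes are therefore uncertain. The authors deposited 1 pooled FPKM per gene and group, with the log2 fold change, the statistic of their test (an unbounded score), a p-value and a q-value for each pair of groups. Depth was unknown.

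Log2 ratios were computed from the FPKM with Python 3.11.15, pandas 2.3.3, numpy 2.4.6 and scipy 1.17.1 (figures with matplotlib 3.10.9), without a pseudocount, and differed from the deposited log2 values by at most 1.39e-05. Each gene name and locus was used once. Of 15005 entries with a single name, 14929 matched Ensembl release 115 by gene ID and took class and lengths from it. Normal p-values from the deposited statistics were larger than the deposited p-values (for deposited p-values of 0.001 to 0.01, medians of 0.0766 and 0.0032), and 0.00216 when each variance was divided by the libraries in its group. Errors after ± rest on that division, which was adopted with the values in view. The strains were compared with a Wald test from these errors. It was also run on simulated data whose noise was drawn from the same errors, so the simulation could not check the division. The labels give total and polysomal libraries the same replicate numbers, and this pairing was ignored.

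Genes were named by rule: the 12 highest and 12 lowest coding genes past the threshold at 1 FPKM or more in both fractions and 5 in 1 of them, up to 3 highest and 3 lowest per list or class, all members of lists of 12 or fewer, and the 10 most abundant. Members, the 57 lists and tests were chosen with earlier results of these data known. Other list members named in the text were chosen after their values were seen.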

Additional observations from a re-analysis of the deposited data

Results flagged for a closer look

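In the test between strains, 8 genes that belong to a list or were named by the rule had a ratio of polysomal to total RNA that differed at the 0.05 threshold, adjusted over all 14665 genes. The test is a normal approximation from pooled values, and 4 genes in all passed with the authors' statistics as they stand. Each difference is the mutant-labelled minus the wild-type log2 ratio. It was 6.32 ± 0.60 for pud-2.1, at -6.30 in wild type and 0.02 in the mutant-labelled strain. pud-2.1 has a close copy, pud-2.2, and stood at 69.7 FPKM in wild-type total RNA against 1.26 in mutant-labelled total RNA. The difference was 2.21 ± 0.35 for nspc-7 (-0.35 and 1.86), of a family of small peptides with close copies. For spe-44 it was 1.36 ± 0.29 (-2.90 and -1.54) and for dpy-10 1.27 ± 0.32 (-1.53 and -0.25). For cpg-1, an eggshell proteoglycan gene, it was -0.91 ± 0.22 (-0.73 and -1.65). It was -2.04 ± 0.51 for nhr-67 (0.95 and -1.08), -2.87 ± 0.70 for W05E10.5 (2.63 and -0.25) and -3.16 ± 0.73 for C01G10.4 (2.43 and -0.73), 3 genes under 1 FPKM in wild-type total RNA.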

How the results depend on the processing

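No paired analysis was possible because the table holds 1 pooled value per group, and for the same reason no library could be left out. The counts of 3765 higher and 4113 lower entries stayed within 1.5 times under q under 0.01, adjustment over this comparison alone, 1 FPKM or more in both fractions, single-name entries, every gene ID, centring, and without long deposited intervals. At 5 FPKM or more in both, 2627 were lower. With normal p-values from the authors' statistics as they stand, 1448 were higher and 2624 lower, and the test between strains gave 4 genes in place of 23. The latter alternatives, like that on intervals, were chosen after seeing the data.

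Spearman's rho with abundance was 0.05 by the mean of 4 groups, -0.14 by wild-type total FPKM and -0.032 by mutant-labelled total FPKM. Among list medians, chemoreceptors went from -0.81 to 0.33 at 1 FPKM or more and 0.49 at 5 or more (2 genes), and a list of ribosome assembly genes, which also takes in wdr genes not known for that role, from 0.03 to -0.011 when centred. In the mutant-labelled strain 12 named genes had the opposite sign, namely rpl-38 (-0.54), rla-1 (-0.14), rrn-1.1 (-0.22) and rrn-3.1 (-0.086), none of which had passed in wild type (rpl-38 passed in the other strain), and W01D2.1 (-0.079), eef-1B.1 (-0.014), sip-1 (-0.047), him-3 (0.13), nspb-3 (-0.63), C01G10.4 (-0.73), pud-2.1 (0.021) and W05E10.5 (-0.25). The cause of these changes was not tested. A pseudocount of 1 FPKM moved 77 of 410 named ratios and 11 list or class medians beyond an estimated spread between libraries. One of 0.1 FPKM moved 18 and 6, with no sign reversed. That spread was worked back from the authors' statistics and not measured. In the mutant-labelled strain, 47 other named genes kept their direction and no longer passed.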
